A study of Arabidopsis thaliana with 9 samples.

Results

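Transcript levels of 5-day-old Arabidopsis thaliana seedlings overexpressing the microRNA gene MIR394A (MIR394A OE) were compared with those of Brz-treated seedlings of the wild-type strain Col-0. Each group had 3 libraries. Both groups were whole seedlings grown in light, and the Brz-treated ones received 2 µM Brz. The compared genes were those with an FPKM (fragments mapped to a gene, scaled by transcript length and library depth) of at least 1 in at least 3 of these 6 libraries, 17201 of the 24331 genes with values. The series also holds 3 libraries of untreated Col-0 of the same age, whose levels are given beside the others. The labels do not name the promoter that drives MIR394A, do not say whether the overexpressor is a single line, and mention no solvent control for Brz. They also do not say whether replicates were separate growths, so the spread that the p-values rest on may be technical. The 2 compared groups differ in genotype and in treatment at once, and the design does not separate these.

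Brassinosteroids are steroid hormones that drive cell elongation in the hypocotyl and other organs. They bind the receptor kinase BRI1 with its partner BAK1, which leads to the inactivation of the kinase BIN2 and lets the transcription factors BZR1 and BES1 act on their target genes. These factors lower the transcription of synthesis genes such as DWF4 and CPD, so that low hormone levels are known to raise those transcripts. Brz is the usual abbreviation of brassinazole, an inhibitor of brassinosteroid synthesis, although the labels give only the abbreviation. MicroRNA miR394 acts on the transcript of the F-box gene LCR and is known from leaf shape and from the shoot meristem. By its title, the series asks whether this microRNA bears on hypocotyl elongation by way of the hormone.

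The mature miR394 and its pairing sites are shown because they define which transcripts the overexpressed microRNA could act on directly. Sequences are from the RefSeq annotation of TAIR10.1. Capitals mark bases 2 to 8 of the microRNA (the seed) and the bases of each site opposite them. MIR394A and MIR394B give the same mature sequence, at chr1:7058207-7058226 and chr1:28568821-28568840, both on the + strand. The LCR site lies at chr1:9497605-9497624 (+ strand) within coding bases of exon 2 of 2, and the site of AT4G20430, a gene of the subtilase family, at chr4:11018687-11018706 on the - strand, also in coding sequence.
miR394a: uUGGCAUUcuguccaccucc
LCR site: ggaggttgacagAATGCCAa
AT4G20430 site: gcaggtggacaaAATGCTAa
Sites were scored by adding 1 for a mismatch and 0.5 for a G:U pair, with double weight at microRNA positions 2 to 13. Over the longest transcript of each of 31342 annotated loci with an mRNA, 3 sites scored 4 or less. LCR was the lowest, at 1. The other 2, at 4, were in AT4G20430 and in AT1G40104, which was not among the tested genes. A match is a description of sequence and shows no regulation.

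LCR (AT1G27340) did not differ detectably between the groups. It measured 27.2, 27.9 and 24.8 FPKM in MIR394A OE, against 25.8, 25.4 and 24.1 FPKM in Brz-treated Col-0, and 24.2, 21.8 and 28.9 FPKM in Col-0. The ranges of all 3 groups overlapped. Its log2 fold change, here always MIR394A OE minus Brz-treated Col-0 on log2(FPKM + 1), was 0.08 ± 0.14 (SE; limma adjusted p = 0.67). For LCR it was -0.27 (adjusted p = 0.25) after removal of the length trend and -0.14 (adjusted p = 0.53) with median-ratio scaling, both described below. The sign thus depended on the processing, and no call was made in these settings. AT4G20430 measured 2.53, 1.76 and 1.54 FPKM in MIR394A OE, against 1.07, 0.54 and 0.66 FPKM in Brz-treated Col-0, and the call of its log2 fold change of 0.74 ± 0.19 (adjusted p = 0.0092) was lost with the length trend described below removed (-0.03, adjusted p = 0.89). Transcripts of MIR394A and MIR394B themselves were not analysed here, so the overexpression was not checked.

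The libraries had nearly equal depths of 21.6 to 22.0 M reads, fitted from the steps of low FPKM values. In a principal component analysis the first component held 62.6% of the variance, with MIR394A OE at 17.7 to 28.7, Brz-treated Col-0 at -64.5 to -23.7 and Col-0 at 24.4 to 30.2. Brz-treated replicate 1, at -23.7, lay apart from the other Brz-treated libraries, at -64.5 and -64.0. On the second component, with 16.6%, MIR394A OE replicate 3, Brz-treated replicate 1 and Col-0 replicate 2 lay at 23.6 to 28.6 and the other libraries at -24.9 to -3.97. Among the called genes described next, Brz-treated replicate 1 was the Brz-treated library nearest to the MIR394A OE mean for 87.6% of those higher and 60.3% of those lower in MIR394A OE.

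The difference between the groups followed transcript length. Its log2 fold change had a Spearman correlation of 0.67 with the length of the longest transcript over 17079 genes, which are not independent replicates. By length quintile, the median ran up to 0.69 for the longest transcripts (from 2420 bases), against -0.37 for the shortest (up to 1108 bases). In the shortest quintile 37.9% of the genes were called lower in MIR394A OE, and in the longest 67.2% were called higher. The correlation of a library's deviation from the gene mean with length was 0.20 to 0.54 in MIR394A OE, -0.70 to -0.43 in Brz-treated Col-0 and 0.45 to 0.57 in Col-0. These deviations sum to 0 over the 9 libraries, so the opposite signs are not separate observations. Whether it arose in the seedlings or in library preparation was not tested. Results are therefore given as deposited and with a smooth trend on length removed from each library. Such a removal also takes away any effect of the groups that follows length. It was repeated without Brz-treated Col-0 replicate 1 and, a choice made after seeing the data, without MIR394A OE replicate 3.

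**Figure D1:**
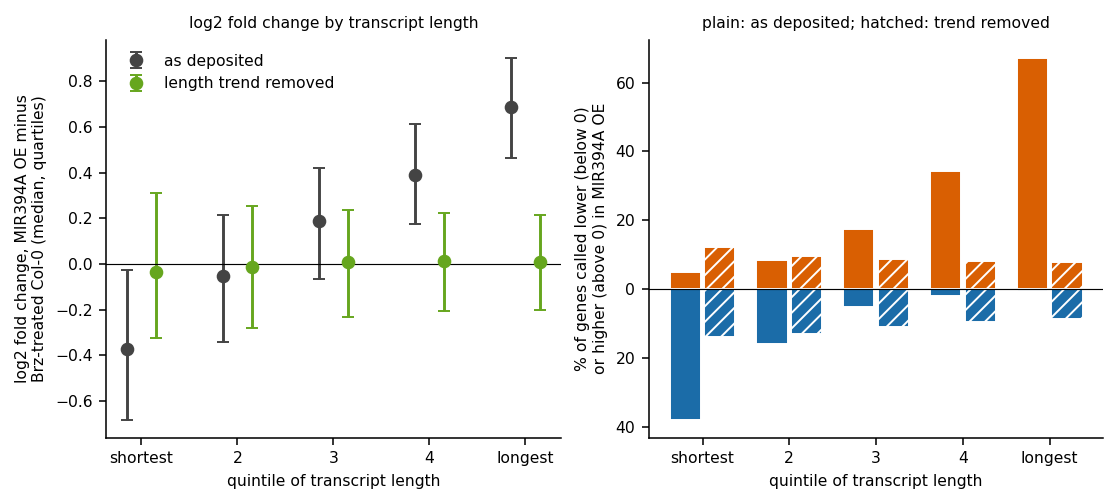
Left, log2 fold change of MIR394A OE minus Brz-treated Col-0 (median and quartiles) by quintile of transcript length, for values as deposited and with the length trend removed. Right, percent of the genes of each quintile called higher (orange, above 0) or lower (blue, below 0), as deposited (plain) and after removal (hatched). The deposited medians climb with length through the 5 quintiles, and after removal between 8.02% and 12.4% of each quintile were called higher.

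Of the 17201 genes, 4525 (26.3%) were called higher and 2124 (12.3%) lower in MIR394A OE than in Brz-treated Col-0 (limma, Benjamini-Hochberg adjusted p under 0.05). The median log2 fold change over all genes was 0.20. Counts within a gene list stand beside these shares, and beside those given next for other treatments of the values. Both directions together made up 38.7%. Median-ratio scaling brought that median to 0.01 and gave 3599 genes (20.9%) called higher and 3882 (22.6%) called lower. Removal of the length trend brought it to -0.001 and gave 1608 (9.35%) higher and 1944 (11.3%) lower. Both as deposited and after removal, 1262 genes (7.34%) were higher and 1155 (6.71%) lower, and under median-ratio scaling too, 1069 (6.21%) and 1155 (6.71%). Every MIR394A OE library lay above every Brz-treated one in 5239 genes (30.5%) and below in 2827 (16.4%), so that 8066 (46.9%) had no overlap. Among the called genes, 887 (5.16% of all tested) were higher and 377 (2.19%) lower by a log2 fold change of 1 or more. Single libraries weighed on these counts. The number higher was 2773 without MIR394A OE replicate 1, 2329 without Brz-treated Col-0 replicate 2, 2549 when replicate 3 of that group was left out and 6771 when its replicate 1 was. The number lower was 1272 without MIR394A OE replicate 1, 1314 when its replicate 2 was left out and 1330 when either replicate 2 or replicate 3 of Brz-treated Col-0 was.

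Genes of cell wall proteins led the increases. LRX3, LRX4 and LRX5 encode extensin proteins with leucine-rich repeats that bind wall peptides, and PRP4 encodes a proline-rich wall protein. LRX4 (AT3G24480) measured 91.5, 78.6 and 42.0 FPKM in MIR394A OE, against 11.03, 16.6 and 12.7 FPKM in Brz-treated Col-0. Its groups were clearly apart, and MIR394A OE replicate 3 was the lowest of its group. The log2 fold change was 2.26 ± 0.28 (adjusted p = 0.00052), and 2.08 (adjusted p = 0.0052) with the length trend removed. PRP4 (AT4G38770) was far more abundant, at 1641, 1807 and 887 FPKM in MIR394A OE and 297, 371 and 318 FPKM in Brz-treated Col-0, with the same low position of MIR394A OE replicate 3 (2.07 ± 0.25, adjusted p = 0.00052; after removal 1.77, adjusted p = 0.0074). LRX3 differed by 2.11 ± 0.28 (adjusted p = 0.00061) and LRX5 by 1.90 ± 0.26 (adjusted p = 0.00071), and by 1.45 (adjusted p = 0.021) and 1.197 (adjusted p = 0.024) after removal. In untreated Col-0, LRX4 measured 57.7, 51.9 and 87.7 FPKM, within the MIR394A OE range. After removal, LRX3 and LRX5 were not called without Brz-treated Col-0 replicate 1 (adjusted p = 0.051 to 0.063).

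The other genes among the 12 largest increases were of several kinds. BZIP61, a basic leucine zipper transcription factor gene, measured 94.6, 105 and 75.3 FPKM in MIR394A OE, against 31.4, 20.4 and 19.5 FPKM in Brz-treated Col-0 (1.92 ± 0.18, adjusted p = 0.00021; after removal 1.63, adjusted p = 0.00085). AT1G29660, of the GDSL lipase family, measured 177, 149 and 197 FPKM in MIR394A OE and 55.8, 45.6 and 37.1 FPKM in Brz-treated Col-0 (1.91 ± 0.16, adjusted p = 9.0e-05). SQD2, an enzyme of sulfolipid synthesis, stood at 85.5, 57.6 and 43.8 FPKM in MIR394A OE and 16.4, 12.3 and 18.9 FPKM in Brz-treated Col-0 (1.88 ± 0.24, adjusted p = 0.00061). In each of these genes the groups did not overlap. GSTU24, a glutathione transferase gene, varied widely within MIR394A OE, at 5.35, 17.98 and 27.4 FPKM, against 2.91, 2.57 and 1.9 FPKM in Brz-treated Col-0 (2.13 ± 0.48, adjusted p = 0.0057). SPS4F, a sucrose-phosphate synthase gene, measured 7.38, 5.81 and 13.9 FPKM in MIR394A OE, against 1.76, 0.91 and 1.61 FPKM in Brz-treated Col-0 (1.98 ± 0.33, adjusted p = 0.0015; after removal 1.09, adjusted p = 0.037). AT4G28080 (1.92 ± 0.20, adjusted p = 0.00027), the thionin gene AT1G66100 (1.88 ± 0.25, adjusted p = 0.00063) and AT1G68723, of no known function (2.05 ± 0.43, adjusted p = 0.0039), complete the 12. After removal, SPS4F was not called without Brz-treated Col-0 replicate 1 (adjusted p = 0.083), and SPS4F was not called without MIR394A OE replicate 3 (adjusted p = 0.077).

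Among the decreases, the largest was that of QQS (AT3G30720), a gene known to affect starch content. It measured 0.64, 0.3 and 1.27 FPKM in MIR394A OE, against 30.7, 23.8 and 32.8 FPKM in Brz-treated Col-0 and 22.1, 23.1 and 17.5 FPKM in Col-0. MIR394A OE was thus far below both other groups, with a log2 fold change of -4.14 ± 0.22 (adjusted p = 1.6e-06) against Brz-treated Col-0. MRD1 (AT1G53480), which the annotation names as reduced in the mto1 mutant, measured 0.42, 0.83 and 0.97 FPKM in MIR394A OE, against 27.0, 19.5 and 27.6 FPKM in Brz-treated Col-0 and 18.7, 13.3 and 17.6 FPKM in Col-0 (-3.88 ± 0.20, adjusted p = 1.6e-06). MRD1 passed the filter through Brz-treated Col-0 alone, which fixed its direction but not the size of the difference. AT1G75945, of no known function, had the same order of groups, at 1.08, 1.95 and 1.08 FPKM in MIR394A OE, 14.5, 20.7 and 17.3 FPKM in Brz-treated Col-0 and 13.9, 11.3 and 7.65 FPKM in Col-0 (-2.97 ± 0.23, adjusted p = 6.2e-05). For these 3 genes the untreated Col-0 libraries lay nearer to the Brz-treated ones than to MIR394A OE.

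A further 9 genes complete the 12 largest decreases. AT5G57785, of no known function, was highest in Brz-treated Col-0, at 92.7, 71.1 and 145 FPKM in MIR394A OE, 504, 841 and 808 FPKM in Brz-treated Col-0 and 79.7, 113 and 91.2 FPKM in Col-0 (-2.81 ± 0.25, adjusted p = 0.00016). SMR5 (AT1G07500), a gene of the SIAMESE-related inhibitors of the cell cycle, was listed at 0 in MIR394A OE replicates 1 and 2 and at 0.58 FPKM in replicate 3, against 4.56, 6.56 and 8.36 FPKM in Brz-treated Col-0, while all 3 Col-0 libraries also listed it at 0. It passed the filter through Brz-treated Col-0 alone, which fixed its direction but not the size of the difference. ICL, the isocitrate lyase that serves the conversion of seed oil to sugar, measured 62.2, 13.4 and 17.95 FPKM in MIR394A OE, against 154, 109.5 and 134 FPKM in Brz-treated Col-0 (-2.35 ± 0.40, adjusted p = 0.0016). Its MIR394A OE replicate 1 was the high library of the group. AT1G56150, of the SAUR-like family, measured 0.83, 1.01 and 1.54 FPKM in MIR394A OE and 6.5, 11.5 and 12.6 FPKM in Brz-treated Col-0 (-2.36 ± 0.23, adjusted p = 0.00025). AT3G55240 (-2.28 ± 0.19, adjusted p = 9.0e-05), the defensin-like gene AT3G59930 (-2.23 ± 0.34, adjusted p = 0.0010), the growth peptide gene RTFL12 (-2.23 ± 0.46, adjusted p = 0.0037) and the methyltransferase-related AT5G18150 (-2.23 ± 0.42, adjusted p = 0.0024) fell as well. ERF6, an ethylene response factor gene, measured 3.41, 16.2 and 17.5 FPKM in MIR394A OE, against 31.8, 42.8 and 96.4 FPKM in Brz-treated Col-0 (-2.21 ± 0.51, adjusted p = 0.0065). For AT5G18150 and RTFL12, Brz-treated replicate 1 was well below the other Brz-treated libraries.

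The position of untreated Col-0 between the groups was taken as 0 at the Brz-treated mean and 1 at the MIR394A OE mean, on log2(FPKM + 1). Its median over the 12 largest increases was 0.98 (0.62 to 1.06), so that Col-0 lay nearer to MIR394A OE for all 12. Over the 12 largest decreases it was 0.80 (0.11 to 1.14), with 8 of 12 nearer to MIR394A OE. The other 4 were QQS (0.11), MRD1 (0.14), AT1G75945 (0.22) and ERF6 (0.49).

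**Figure D2:**
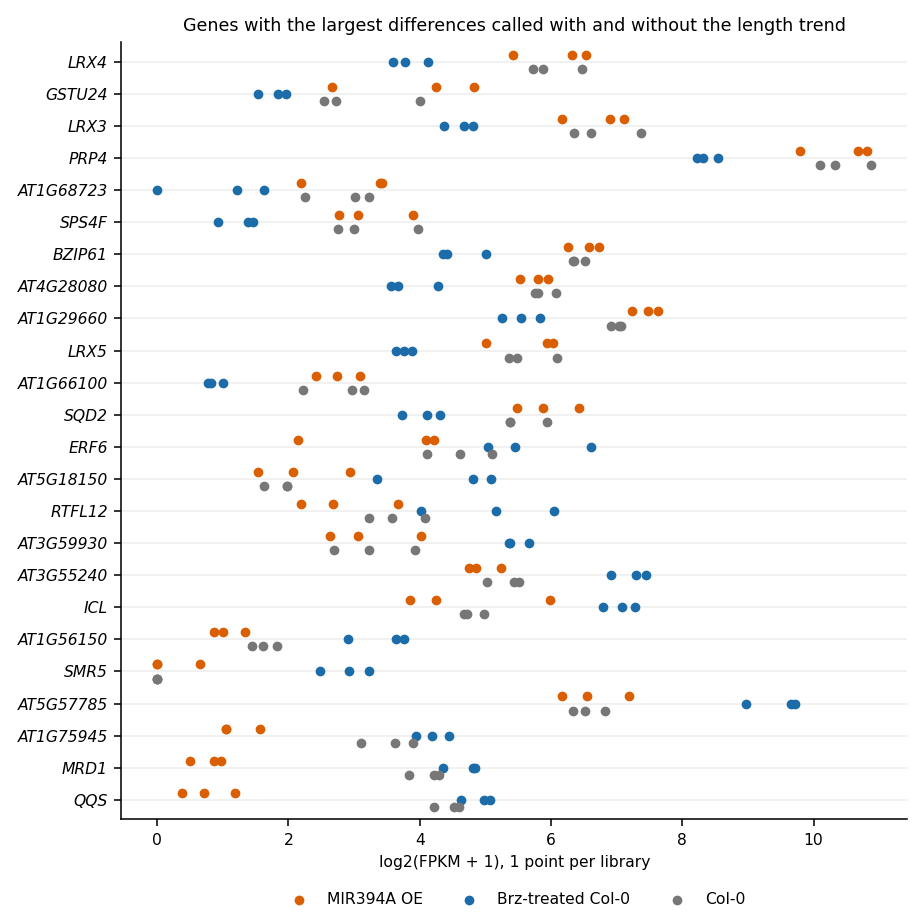
Levels of the 12 genes with the largest increases (upper rows) and the 12 with the largest decreases (lower rows) in MIR394A OE relative to Brz-treated Col-0, as log2(FPKM + 1) with 1 point per library. On average the Col-0 points lie nearer to those of MIR394A OE in all 12 upper rows, whereas for QQS, MRD1 and AT1G75945 they lie nearer to those of Brz-treated Col-0.

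Genes of brassinosteroid synthesis were in part lower in MIR394A OE. Of the 10 tested, 0 were called higher and 3 lower, with a median log2 fold change of -0.11, and 0 higher and 5 lower once the length trend was removed, with a median of -0.55. DWF4 (AT3G50660), the C-22 hydroxylase at the rate-limiting step, measured 3.89, 4.1 and 5.89 FPKM in MIR394A OE, against 13.3, 8.05 and 7.73 FPKM in Brz-treated Col-0 (-0.91 ± 0.23, adjusted p = 0.0093; after removal -1.52, adjusted p = 0.00080). CPD, a cytochrome P450 of the pathway, measured 93.8, 119 and 93.0 FPKM in MIR394A OE, against 164, 163 and 138 FPKM in Brz-treated Col-0 (-0.61 ± 0.14, adjusted p = 0.0056; after removal -0.91, adjusted p = 0.0067). BR6OX2, the enzyme of the last step to brassinolide, measured 5.47, 5.97 and 11.7 FPKM in MIR394A OE, against 35.0, 20.8 and 18.9 FPKM in Brz-treated Col-0 (-1.59 ± 0.30, adjusted p = 0.0023; after removal -1.89, adjusted p = 0.0022). In these 3 genes every MIR394A OE library lay below every Brz-treated one, and Brz-treated replicate 1 was the highest library. Col-0 stood close to MIR394A OE, at 4.14, 5.48 and 3.76 FPKM for DWF4 and 8.81, 11.7 and 6.56 FPKM for BR6OX2. Among the synthesis genes, 2 were higher without Brz-treated Col-0 replicate 1.

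A further 2 synthesis genes were called lower after length removal but not as deposited. ROT3, a C-23 hydroxylase, measured 6.78, 6.54 and 7.41 FPKM in MIR394A OE, against 11.4, 8.06 and 6.82 FPKM in Brz-treated Col-0. Its groups overlapped, and the log2 fold change of -0.28 ± 0.19 (adjusted p = 0.27) became -0.74 (adjusted p = 0.0039) after removal. Under median-ratio scaling, without length removal, ROT3 was called lower too (-0.48, adjusted p = 0.012). DWF1, of sterol synthesis, measured 251, 240.5 and 205 FPKM in MIR394A OE, against 265, 298 and 308 FPKM in Brz-treated Col-0 (-0.32 ± 0.13, adjusted p = 0.061; after removal -0.84, adjusted p = 0.016). DET2 (0.27 ± 0.18, adjusted p = 0.24), CYP90D1 (0.05 ± 0.20, adjusted p = 0.85), BR6OX1 (0.53 ± 0.20, adjusted p = 0.050), DWF5 (0.18 ± 0.15, adjusted p = 0.36) and STE1 (0.23 ± 0.13, adjusted p = 0.19) were called neither as deposited nor after removal. Without MIR394A OE replicate 3, a choice made after seeing the data, CYP90D1 was called lower after removal, at -0.48 (adjusted p = 0.033). Median-ratio scaling gave 4 lower synthesis genes and 1 higher, BR6OX1 (0.40, adjusted p = 0.048). DWF1 was not called under that scaling (-0.55, adjusted p = 0.053). Among the synthesis genes, 2 were higher without Brz-treated Col-0 replicate 1.

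Of 6 genes that inactivate brassinosteroids, 1 was called higher, both as deposited and after removal. BAS1, a hydroxylase of active brassinosteroids, measured 5.08, 4.63 and 5.82 FPKM in MIR394A OE, against 2.93, 1.85 and 1.7 FPKM in Brz-treated Col-0, with no overlap (0.98 ± 0.19, adjusted p = 0.0026; after removal 0.57, adjusted p = 0.012). SOB7, another cytochrome P450 of inactivation, measured 2.59, 2.58 and 4.14 FPKM in MIR394A OE and 2.85, 1.35 and 1.4 FPKM in Brz-treated Col-0, where replicate 1 overlapped MIR394A OE (0.54 ± 0.23, adjusted p = 0.084). The glucosyltransferase genes UGT73C5 (0.18 ± 0.22, adjusted p = 0.53) and UGT73C6 (0.49 ± 0.27, adjusted p = 0.17), the acyltransferase gene BIA1 (0.09 ± 0.17, adjusted p = 0.68) and the reductase gene BEN1 (0.25 ± 0.14, adjusted p = 0.17) were not called.

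**Figure D3:**
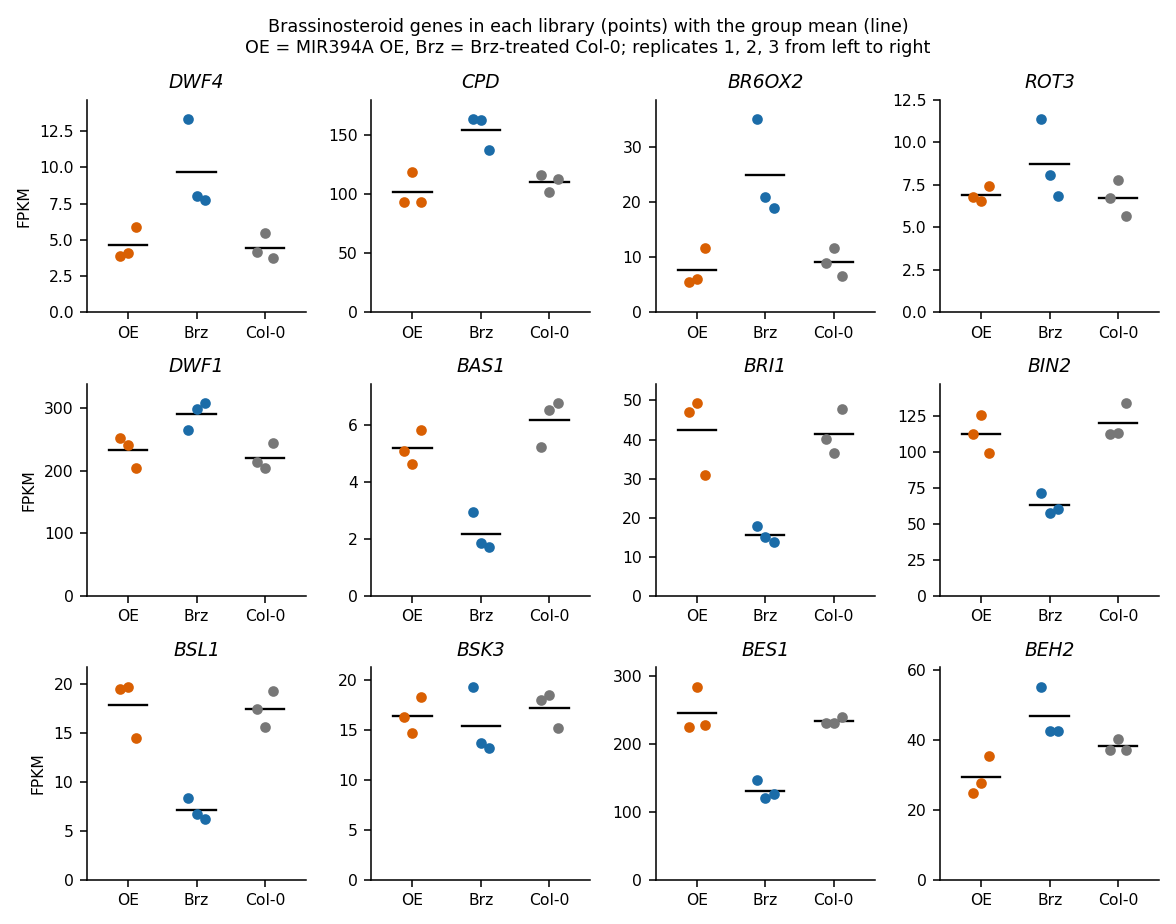
FPKM of 12 brassinosteroid genes in each library of MIR394A OE, Brz-treated Col-0 and Col-0 (points, replicates from left to right), with the mean of each group (line). DWF4, CPD and BR6OX2 have all MIR394A OE points below all Brz-treated points, and BAS1, BRI1, BIN2, BSL1 and BES1 have them above.

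Signalling genes were higher in MIR394A OE in the deposited values, and few of them were called after removal. Among 11 tested genes of receptors, kinases and phosphatases, 7 were called higher and 0 lower (median 0.52), and 2 higher and 1 lower after removal (median 0.19). BRI1, the receptor, measured 47.0, 49.4 and 30.9 FPKM in MIR394A OE, against 17.99, 15 and 13.7 FPKM in Brz-treated Col-0 (1.37 ± 0.19, adjusted p = 0.00076), and its call was lost after removal (0.50, adjusted p = 0.096). BIN2, the kinase that restrains the pathway, measured 113, 126 and 99.8 FPKM in MIR394A OE, against 71.8, 57.9 and 60.2 FPKM in Brz-treated Col-0 (0.83 ± 0.14, adjusted p = 0.0015), and was called after removal with all libraries (0.51, adjusted p = 0.035). BSL1, a phosphatase of the BSU1 family, was the other such gene, at 19.5, 19.8 and 14.5 FPKM in MIR394A OE and 8.32, 6.74 and 6.18 FPKM in Brz-treated Col-0 (1.22 ± 0.17, adjusted p = 0.00081; after removal 0.53, adjusted p = 0.044). The relatives BSL2 and BSL3 were higher by 1.03 ± 0.16 (adjusted p = 0.0011) and 0.84 ± 0.17 (adjusted p = 0.0037) and had values of 0.19 (adjusted p = 0.35) and 0.02 (adjusted p = 0.94) after removal. The co-receptor gene BAK1 differed by 0.52 ± 0.15 (adjusted p = 0.017) and its sign turned after removal (-0.08, adjusted p = 0.70), while the inhibitor gene BKI1 stood at 0.51 ± 0.15 (adjusted p = 0.019) and 0.24 (adjusted p = 0.16). BSK3, a receptor-like cytoplasmic kinase gene, was not called as deposited (0.10 ± 0.17, adjusted p = 0.66) and was called lower after removal (-0.50, adjusted p = 0.010). BSK1 (0.44 ± 0.17, adjusted p = 0.060), BIL1 (0.36 ± 0.14, adjusted p = 0.066) and BIL2 (0.47 ± 0.26, adjusted p = 0.17) were not called. After removal, BIN2 and BSL1 were not called without Brz-treated Col-0 replicate 1 (adjusted p = 0.067 to 0.095).

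Among the 6 genes of the BZR1 and BES1 family, 4 were called higher and 1 lower (median 0.56), and 1 higher and 1 lower after removal (median 0.31). With median-ratio scaling 1 was higher and 2 were lower, and removal without MIR394A OE replicate 3 gave 3 higher, against 2 with quantile normalization of the deposited values. BES1 measured 225, 284 and 227 FPKM in MIR394A OE, against 147, 121 and 126 FPKM in Brz-treated Col-0 (0.90 ± 0.13, adjusted p = 0.00089; after removal 0.48, adjusted p = 0.035). BEH2 ran the other way, at 24.9, 27.8 and 35.4 FPKM in MIR394A OE, 55.3, 42.5 and 42.5 FPKM in Brz-treated Col-0 and 37.1, 40.4 and 37.1 FPKM in Col-0 (-0.66 ± 0.16, adjusted p = 0.0082; after removal -0.82, adjusted p = 0.0026). Its MIR394A OE libraries were below all libraries of both other groups. BZR1 measured 31.6, 37.2 and 26.7 FPKM in MIR394A OE, against 21.2, 17.5 and 18.4 FPKM in Brz-treated Col-0 (0.70 ± 0.16, adjusted p = 0.0061; after removal 0.54, adjusted p = 0.054). BEH3 (0.57 ± 0.21, adjusted p = 0.045) and BEH4 (0.54 ± 0.17, adjusted p = 0.027) were called as deposited only, and BEH1 was not called (-0.17 ± 0.13, adjusted p = 0.31). Among this family, 2 were higher without MIR394A OE replicate 1 or 2 or Brz-treated Col-0 replicate 2 or 3. BAK1 lost its call without MIR394A OE replicate 1 or Brz-treated Col-0 replicate 2 (adjusted p = 0.082 to 0.088), BKI1 without MIR394A OE replicate 1 or 2 or Brz-treated Col-0 replicate 2 (adjusted p = 0.067 to 0.092), BEH3 without MIR394A OE replicate 1, 2 or 3, Brz-treated Col-0 replicate 2 or 3 or Col-0 replicate 1, 2 or 3 (adjusted p = 0.053 to 0.20), and BEH4 without MIR394A OE replicate 1 or 2 or Brz-treated Col-0 replicate 2 or 3 (adjusted p = 0.072 to 0.13). After removal, BES1 was not called without Brz-treated Col-0 replicate 1 (adjusted p = 0.070).

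Small growth regulators of the helix-loop-helix type were called about as often as all genes in the deposited values. Of 9 tested, 2 were called higher and 1 lower (median 0.27), against 26.3% and 12.3% of all genes, and 4 higher and 1 lower after removal (median 0.32), while median-ratio scaling gave 1 higher and 2 lower. PRE1, which promotes elongation downstream of brassinosteroids and gibberellin, measured 10.5, 10.9 and 9.37 FPKM in MIR394A OE, against 4.81, 3.77 and 4.51 FPKM in Brz-treated Col-0 (1.07 ± 0.18, adjusted p = 0.0014; after removal 1.42, adjusted p = 0.0022). PRE6, of the same family, measured 29.8, 36.6 and 33.2 FPKM in MIR394A OE, against 25.02, 22.1 and 25.02 FPKM in Brz-treated Col-0, and stood higher still in Col-0, at 44.7, 40 and 39.97 FPKM (0.45 ± 0.13, adjusted p = 0.021). IBH1, an inhibitor that PRE proteins bind, measured 12.1, 13.02 and 14.7 FPKM in MIR394A OE, against 19.1, 20.3 and 20.6 FPKM in Brz-treated Col-0 (-0.56 ± 0.15, adjusted p = 0.011). The growth factors BEE2 and HBI1 overlapped between groups, and MIR394A OE replicate 3 was their highest MIR394A OE library, at 34.5 FPKM for BEE2 and 29.8 FPKM for HBI1. PRE6 lost its call without MIR394A OE replicate 2 or Brz-treated Col-0 replicate 2 or 3 (adjusted p = 0.053 to 0.093), and IBH1 without MIR394A OE replicate 1 (adjusted p = 0.058). Removal gave 2 higher helix-loop-helix genes without Brz-treated Col-0 replicate 1.

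SAUR genes, short auxin-induced genes of which several activate the plasma membrane proton pump, were mostly higher in MIR394A OE among those listed here. Of 20 tested, 13 were called higher and 1 lower, with a median log2 fold change of 0.77, against 0.20 over all genes. After removal of the length trend, 17 were higher and 0 lower, with a median of 1.16. Without Brz-treated replicate 1 the counts were 12 higher and 1 lower, and 17 and 0 after removal. SAUR62 (AT1G29430) measured 23.5, 22.8 and 26.1 FPKM in MIR394A OE, against 6.84, 5.82 and 6.57 FPKM in Brz-treated Col-0 (1.76 ± 0.18, adjusted p = 0.00031). SAUR64 measured 11.4, 10.5 and 14.6 FPKM in MIR394A OE, against 5.4, 5.72 and 5.5 FPKM in Brz-treated Col-0 (1.002 ± 0.20, adjusted p = 0.0030). SAUR9 measured 2.84, 3.25 and 3.71 FPKM in MIR394A OE, against 1.57, 1.48 and 1.53 FPKM in Brz-treated Col-0 (0.75 ± 0.15, adjusted p = 0.0036). None of these 3 overlapped between the groups. The list is a chosen part of the family. AT1G56150, of the SAUR-like family but outside the list, was lower in both settings. It stood at -2.36 ± 0.23 (adjusted p = 0.00025) as deposited and at -1.98 (adjusted p = 0.00080) after removal.

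Within the family the position of untreated Col-0 varied. SAUR20 (AT5G18020) measured 59.3, 47.9 and 65.1 FPKM in MIR394A OE, 33.4, 36.02 and 28.8 FPKM in Brz-treated Col-0 and 39.1, 42.7 and 31.2 FPKM in Col-0 (0.79 ± 0.16, adjusted p = 0.0039; after removal 1.38, adjusted p = 0.0011). Its MIR394A OE libraries lay above all other libraries, as did those of SAUR21, SAUR22, SAUR23 and SAUR63. SAUR50 ran against the others, at 58.1, 45.0 and 61.9 FPKM in MIR394A OE, 64.7, 96.3 and 85.5 FPKM in Brz-treated Col-0 and 36.3, 35.5 and 36.5 FPKM in Col-0, and was called lower as deposited (-0.56 ± 0.17, adjusted p = 0.020) and not called after removal (-0.23, adjusted p = 0.31). SAUR16 (0.09 ± 0.18, adjusted p = 0.69) and SAUR66 (0.26 ± 0.27, adjusted p = 0.45) were called in neither setting. Several SAUR genes lie in tandem and are near-identical, so reads may have been assigned to either copy.

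**Figure D4:**
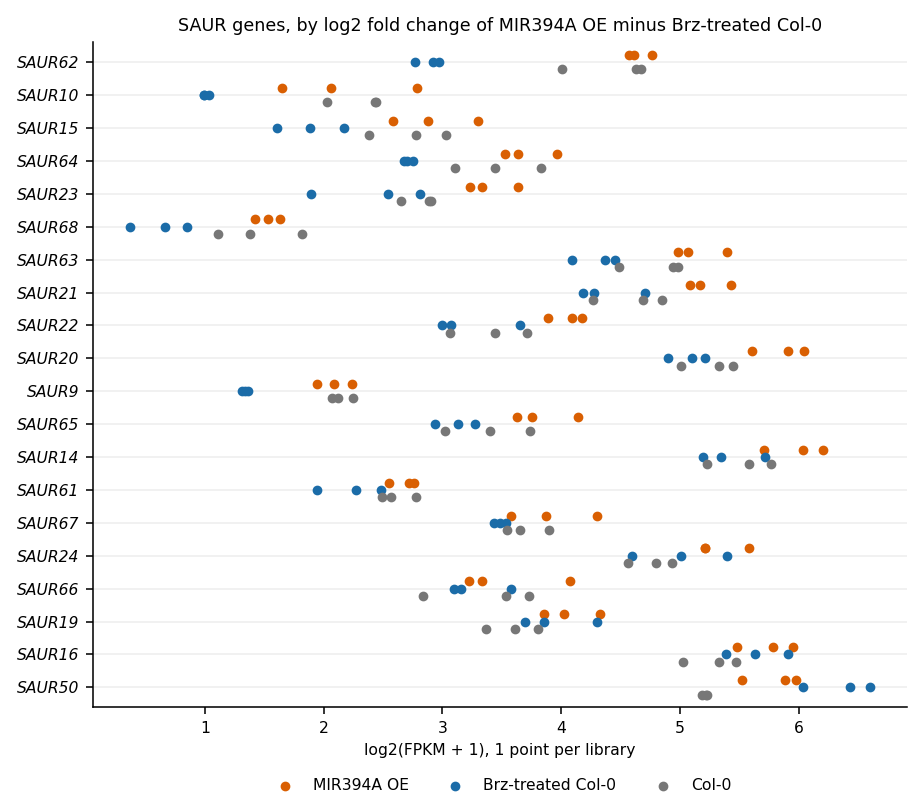
Levels of 20 SAUR genes as log2(FPKM + 1), with 1 point per library, ordered by the log2 fold change of MIR394A OE minus Brz-treated Col-0. The MIR394A OE points lie to the right of the Brz-treated ones in most rows, and SAUR50 in the lowest row shows the opposite order.

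Early auxin-response genes of the Aux/IAA and GH3 families showed 5 of 12 higher and 0 lower (median 0.55), and 6 higher and 0 lower after removal (median 0.62). IAA19, a repressor of auxin signalling expressed in elongating hypocotyls, measured 21.7, 22.9 and 30.6 FPKM in MIR394A OE, against 11.6, 11.9 and 9.63 FPKM in Brz-treated Col-0 (1.1007 ± 0.16, adjusted p = 0.00093; after removal 1.35, adjusted p = 0.00082). IAA6 was close to 0 in Brz-treated Col-0, at 1.67, 1.06 and 2.86 FPKM in MIR394A OE and 0.11, 0.06 and 0.06 FPKM in Brz-treated Col-0 (1.36 ± 0.21, adjusted p = 0.0011). It passed the filter through MIR394A OE alone, so the filter fixed its direction. IAA14 (0.91 ± 0.15, adjusted p = 0.0013) and IAA3 (0.91 ± 0.23, adjusted p = 0.0093) were higher too. Without Brz-treated Col-0 replicate 1, 7 were higher and 1 lower.

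Auxin transport genes gave 10 of 12 higher and 0 lower as deposited (median 0.76), and 0 higher and 1 lower after removal (median 0.20). Median-ratio scaling gave 6 higher transport genes. Removal gave 5 higher transport genes without MIR394A OE replicate 3. Of the exporters and importers, ABCB4 differed by 1.21 ± 0.16 (adjusted p = 0.00069) and 0.31 (adjusted p = 0.077), PIN3 by 1.002 ± 0.16 (adjusted p = 0.0013) and 0.42 (adjusted p = 0.12), PIN7 by 0.75 ± 0.14 (adjusted p = 0.0026) and 0.15 (adjusted p = 0.42), and LAX1 by 1.1001 ± 0.18 (adjusted p = 0.0013) and 0.62 (adjusted p = 0.054), as deposited and after removal. ABCB19 (AT3G28860), an exporter of auxin that has also been reported to export brassinosteroids, was added after its values were seen. It measured 6.36, 6.43 and 8.56 FPKM in MIR394A OE, 13.6, 8.36 and 7.32 FPKM in Brz-treated Col-0 and 23.1, 22.9 and 24.8 FPKM in Col-0. All 6 libraries of the compared groups lay below every Col-0 library, and the 2 groups overlapped each other. Their log2 fold change was -0.37 ± 0.21 (adjusted p = 0.17) as deposited and -1.24 (adjusted p = 0.0012) after removal.

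Wall-loosening genes were called in both directions. Of 9 alpha-expansin genes, 2 were higher and 2 lower (median 0.24), beside 26.3% higher, 12.3% lower and a median of 0.20 over all genes, and 2 higher and 1 lower after removal (median 0.20). EXPA8 measured 178, 219.8 and 163 FPKM in MIR394A OE, against 84.5, 89.1 and 76.2 FPKM in Brz-treated Col-0 (1.15 ± 0.14, adjusted p = 0.00050; after removal 1.19, adjusted p = 0.0027). EXPA5, known as a brassinosteroid-responsive expansin, measured 33.1, 29.9 and 23.7 FPKM in MIR394A OE, against 10.98, 11.2 and 8.13 FPKM in Brz-treated Col-0 (1.43 ± 0.17, adjusted p = 0.00050; after removal 1.40, adjusted p = 0.0020). EXPA6 (-0.36 ± 0.12, adjusted p = 0.033) and EXPA11 (-0.47 ± 0.16, adjusted p = 0.035) were lower as deposited, and EXPA6 after removal too (-0.48, adjusted p = 0.048). Of 11 XTH genes, whose enzymes cut and rejoin xyloglucan, 5 were higher and 2 lower, both as deposited (median 0.42) and after removal (median 0.50). XTH15 measured 49.2, 74.6 and 45.8 FPKM in MIR394A OE, against 233, 252 and 198 FPKM in Brz-treated Col-0 (-2.01 ± 0.18, adjusted p = 0.00016; after removal -1.90, adjusted p = 0.0020). XTH17 was higher than in both other groups, at 85.7, 88.3 and 81.5 FPKM in MIR394A OE, 35.0, 37.9 and 46.4 FPKM in Brz-treated Col-0 and 56.5, 65.5 and 63.2 FPKM in Col-0 (1.09 ± 0.14, adjusted p = 0.00056). XTH4, the most abundant of those named, rose by 0.74 ± 0.12 (adjusted p = 0.0012) and XTH23 by 0.77 ± 0.14 (adjusted p = 0.0021). Among the expansins, 4 were higher without MIR394A OE replicate 3, and 0 were lower without MIR394A OE replicate 1 or Brz-treated Col-0 replicate 2 or 3. EXPA6 lost its call without MIR394A OE replicate 1, 2 or 3 or Brz-treated Col-0 replicate 2 or 3 (adjusted p = 0.050 to 0.14), and EXPA11 without MIR394A OE replicate 1 or Brz-treated Col-0 replicate 2 or 3 (adjusted p = 0.084 to 0.17). After removal, EXPA6 was not called without MIR394A OE replicate 3 (adjusted p = 0.10).

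Cellulose synthesis genes of the primary wall were higher in 8 of 9 cases and lower in 0 (median 1.11), and 3 were higher and 0 lower after removal (median 0.39). CESA5 measured 22.2, 19.2 and 15.1 FPKM in MIR394A OE, against 7.27, 5.28 and 4.64 FPKM in Brz-treated Col-0 (1.56 ± 0.19, adjusted p = 0.00050; after removal 0.72, adjusted p = 0.010). CESA6 (0.54, adjusted p = 0.022) and CESA2 (0.41, adjusted p = 0.020) were the other catalytic subunits still called after removal. CSI1, which links the synthase to microtubules, differed by 1.49 ± 0.21 (adjusted p = 0.00072) and 0.39 (adjusted p = 0.098). The structural wall proteins LRX3 to LRX5, PRP2 and PRP4 were all 5 higher in both settings (medians 2.07 and 1.45), and 2 of 5 after removal without Brz-treated replicate 1. PRP2 measured 137, 99.5 and 90.8 FPKM in MIR394A OE, against 58.8, 57.2 and 61.2 FPKM in Brz-treated Col-0 (0.85 ± 0.20, adjusted p = 0.0072). The receptor kinase genes THE1, FER, HERK1 and HERK2, sensors of wall state, were all 4 higher as deposited, of which THE1 was kept after removal (0.76, adjusted p = 0.0056) and HERK2 changed sign without a call (-0.18, adjusted p = 0.29). Of 9 beta-tubulin genes 3 were higher as deposited, beside 26.3% of all genes. TUB8 was higher in both settings, at 72.0, 71.9 and 59.0 FPKM in MIR394A OE and 32.9, 24.2 and 23.5 FPKM in Brz-treated Col-0 (1.31 ± 0.15, adjusted p = 0.00050; after removal 1.04, adjusted p = 0.0019). Among 6 genes of the EXORDIUM family, 2 were higher and 1 lower, beside 26.3% and 12.3% of all genes. EXL2 was lower in both settings (-0.74 ± 0.16, adjusted p = 0.0046; after removal -0.92, adjusted p = 0.015). HERK2 lost its call without MIR394A OE replicate 1 or 2, Brz-treated Col-0 replicate 2 or 3 or Col-0 replicate 1 (adjusted p = 0.053 to 0.13). Median-ratio scaling gave 1 higher tubulin gene and 0 higher EXORDIUM genes. Removal gave 5 higher cellulose genes and 2 higher EXORDIUM genes without MIR394A OE replicate 3.

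**Figure D5:**
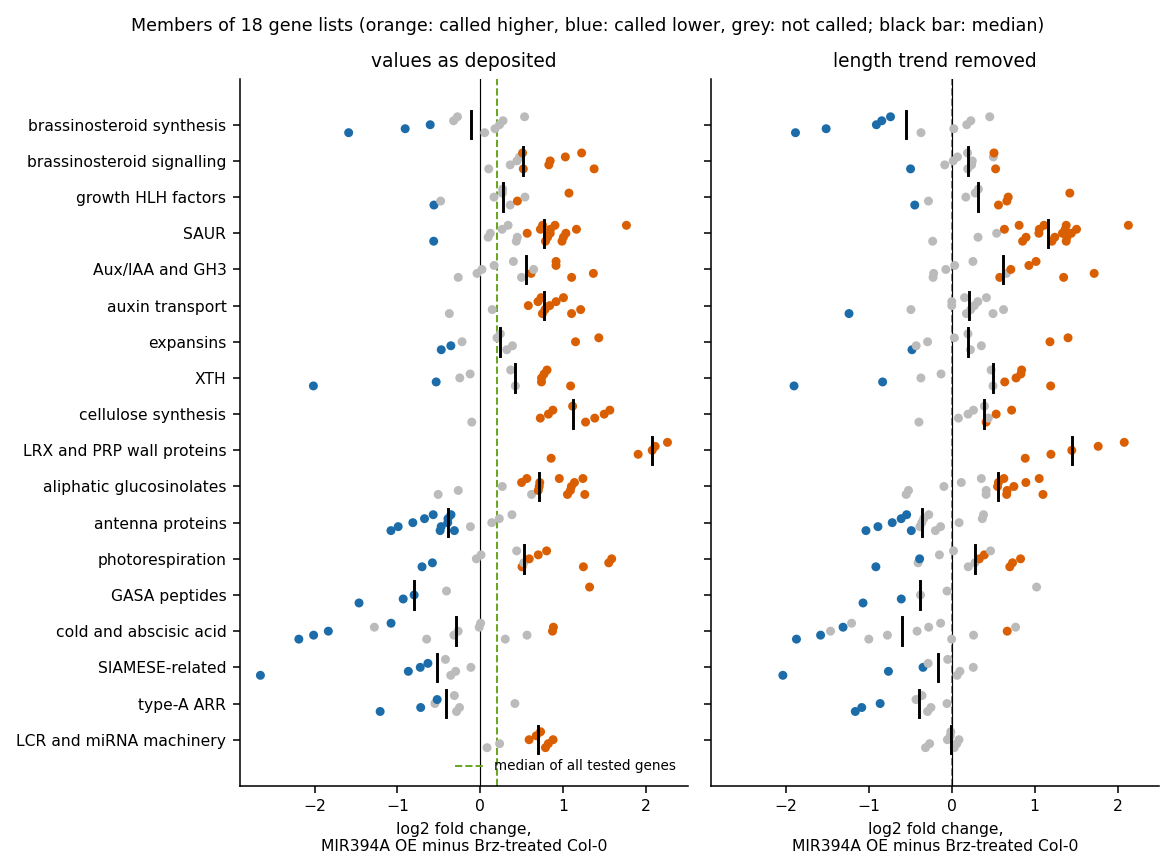
Log2 fold change of MIR394A OE minus Brz-treated Col-0 for the tested members of 18 gene lists, as deposited (left) and with the length trend removed (right). Each point is a gene, coloured where it was called higher (orange) or lower (blue), black bars are list medians and the dashed line is the median of all tested genes. SAUR and wall protein genes lie to the right in both panels. In the right panel the median of LCR and the miRNA machinery genes is near 0, at -0.01, and that of the auxin transport genes falls to 0.20.

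Nuclear genes of the light-harvesting antenna were lower in MIR394A OE than in Brz-treated Col-0. Of 15, 0 were higher and 11 lower (median -0.39), and 0 higher and 6 lower after removal (median -0.36). LHCB1.1 measured 5095, 5705 and 6199 FPKM in MIR394A OE, against 9318, 14673 and 12420.0 FPKM in Brz-treated Col-0 (-1.08 ± 0.16, adjusted p = 0.00093). LHCB1.2 (-0.99 ± 0.14, adjusted p = 0.00086), LHCB1.3 (-0.81 ± 0.14, adjusted p = 0.0018) and LHCB4.2 (-0.67 ± 0.12, adjusted p = 0.0022) were lower too, and the LHCB1 genes are close copies that may share reads. With quantile normalization 2 of the 15 were higher and 4 lower, and after removal without MIR394A OE replicate 3, 1 was higher and 2 lower. Of 75 tested plastid-encoded genes, 1 was higher and 25 lower (median -0.39). None of the 75 had a transcript length here, so that the length trend could not be removed from them. Their transcripts mostly lack the long tails of nuclear messenger RNA, and the share captured in each library was not measured. Antenna and plastid transcripts belong to green cells, and in whole seedlings fewer cells of a type and less RNA per cell cannot be told apart. Among the antenna genes, 2 were higher without MIR394A OE replicate 3, and 7 were lower without MIR394A OE replicate 1 or Brz-treated Col-0 replicate 2. Among the plastid genes, 10 were lower without Brz-treated Col-0 replicate 3, 11 were lower without MIR394A OE replicate 1 and 12 were lower without Brz-treated Col-0 replicate 2. After removal, LHCB1.3 and LHCB4.2 were not called without MIR394A OE replicate 3 (adjusted p = 0.089 to 0.092).

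Photorespiration genes ran mostly the other way. Of 13, 7 were higher and 2 lower (median 0.52), and 5 higher and 2 lower after removal (median 0.28). GLDP1, a subunit of glycine decarboxylase, measured 958, 829.7 and 673 FPKM in MIR394A OE, against 271, 261 and 278 FPKM in Brz-treated Col-0 (1.58 ± 0.15, adjusted p = 0.00018; after removal 0.83, adjusted p = 0.016). Its close relative GLDP2 rose by 1.55 ± 0.14 (adjusted p = 0.00016), the catalase gene CAT2 by 1.24 ± 0.15 (adjusted p = 0.00052) and the reductase gene HPR by 0.59 ± 0.12 (adjusted p = 0.0029). In chlorophyll synthesis 7 of 12 were higher and 0 lower, and 3 higher and 1 lower after removal. CHLH, a subunit of magnesium chelatase, measured 494, 448 and 382 FPKM in MIR394A OE, against 240.2, 181 and 182 FPKM in Brz-treated Col-0 (1.14 ± 0.14, adjusted p = 0.00054), and was not called after removal (0.22, adjusted p = 0.22). GUN4, its activator, was called in both settings (0.68 ± 0.14, adjusted p = 0.0033; after removal 0.73, adjusted p = 0.026). In the Calvin cycle 4 of 15 were higher and 2 lower, near the 26.3% and 12.3% of all genes, with 2 higher and 1 lower after removal. PRK, phosphoribulokinase, rose by 0.99 ± 0.13 (adjusted p = 0.00061) and 0.70 (adjusted p = 0.0043). Among the chlorophyll genes, 3 were higher without Brz-treated Col-0 replicate 2 or 3. Among the Calvin cycle genes, 0 were lower without MIR394A OE replicate 1 or Brz-treated Col-0 replicate 2 or 3 and 4 were lower without Brz-treated Col-0 replicate 1. Median-ratio scaling gave 4 higher chlorophyll genes. Quantile normalization gave 11 higher Calvin cycle genes and 0 lower Calvin cycle genes. Removal gave 3 higher photorespiration genes and 5 lower Calvin cycle genes without Brz-treated Col-0 replicate 1, and 4 higher Calvin cycle genes without MIR394A OE replicate 3. After removal, CAT2, GUN4 and HPR were not called without Brz-treated Col-0 replicate 1 (adjusted p = 0.058 to 0.061).

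Among light-signalling factors 7 of 15 were higher and 2 lower (median 0.65), and 1 higher and 2 lower after removal (median 0.18). BBX20, a B-box protein of light responses, measured 2.12, 1.69 and 2.42 FPKM in MIR394A OE, against 5.33, 6.45 and 7.9 FPKM in Brz-treated Col-0 (-1.29 ± 0.19, adjusted p = 0.0010; after removal -1.31, adjusted p = 0.0037). Its relative BBX21 was higher in both settings (0.78 ± 0.16, adjusted p = 0.0037; after removal 0.66, adjusted p = 0.027). PIF4, which promotes hypocotyl growth, measured 45.7, 40.4 and 44.7 FPKM in MIR394A OE, against 32.5, 23.6 and 20.3 FPKM in Brz-treated Col-0 (0.78 ± 0.17, adjusted p = 0.0046; after removal 0.31, adjusted p = 0.059), and the red-light receptor gene PHYB stood at 1.16 ± 0.21 (adjusted p = 0.0021) and 0.27 (adjusted p = 0.098). GATA2, a transcription factor that promotes light responses and that BZR1 is known to repress, measured 9.71, 9.49 and 7.24 FPKM in MIR394A OE, against 21.6, 22.3 and 21.0 FPKM in Brz-treated Col-0 (-1.21 ± 0.15, adjusted p = 0.00057; after removal -1.19, adjusted p = 0.0030). CGA1, a related factor of chloroplast growth, rose by 1.07 ± 0.24 (adjusted p = 0.0053) and 0.92 (adjusted p = 0.0067). GATA2 and CGA1 were the only called genes among 5 chloroplast factors. Among the light-signalling genes, 11 were higher without Brz-treated Col-0 replicate 1. Removal gave 3 higher light-signalling genes without Brz-treated Col-0 replicate 1.

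Glucosinolates are sulfur-containing defence compounds of the cabbage family. Of 16 genes for those made from methionine, 12 were higher and 0 lower in MIR394A OE (median 0.71), and 9 higher and 0 lower after removal (median 0.56). MAM1, which elongates the methionine chain, measured 35.4, 34.9 and 24.9 FPKM in MIR394A OE, 17.1, 11.5 and 15.8 FPKM in Brz-treated Col-0 and 61.2, 57.6 and 51.5 FPKM in Col-0 (1.05 ± 0.18, adjusted p = 0.0016; after removal 0.75, adjusted p = 0.015). MIR394A OE thus lay between the other groups, with no overlap. FMOGS-OX1, an oxygenase of the side chain, measured 3.37, 3.47 and 3.33 FPKM in MIR394A OE, against 0.86, 0.6 and 1.07 FPKM in Brz-treated Col-0 (1.26 ± 0.16, adjusted p = 0.00061). BAT5, a transporter gene of the pathway (1.09 ± 0.18, adjusted p = 0.0013), and UGT74C1, a glucosyltransferase gene (0.72 ± 0.12, adjusted p = 0.0015), rose too. Of 9 genes for indole glucosinolates and the shared core, 5 were higher and 0 lower, and 2 higher after removal, SUR1 (1.05, adjusted p = 0.0044) and UGT74B1 (0.67, adjusted p = 0.026). TGG2, the myrosinase that cleaves these compounds, measured 79.4, 58.6 and 64.2 FPKM in MIR394A OE, 32.1, 15.4 and 12.2 FPKM in Brz-treated Col-0 and 48.0, 55.3 and 45.7 FPKM in Col-0 (1.82 ± 0.27, adjusted p = 0.00098; after removal 1.49, adjusted p = 0.0029). Removal gave 5 higher indole glucosinolate genes without MIR394A OE replicate 3. After removal, BAT5 and UGT74B1 were not called without Brz-treated Col-0 replicate 1 (adjusted p = 0.057 to 0.059).

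Of 11 jasmonate genes 4 were higher and 0 lower, beside 26.3% and 12.3% of all genes. After removal 3 were higher, beside 9.35% of all genes, among them JAZ1 (0.71 ± 0.24, adjusted p = 0.034; after removal 0.60, adjusted p = 0.043). Among the jasmonate genes, 0 were higher without MIR394A OE replicate 1 or Brz-treated Col-0 replicate 2, 1 was higher without MIR394A OE replicate 2 or Brz-treated Col-0 replicate 3 and 2 were higher without Col-0 replicate 1 or 3. Of 8 salicylate and immune genes, 1 was higher and 1 lower, and 0 higher and 3 lower after removal (medians -0.57 and -0.81). WRKY33, a defence transcription factor gene, measured 3.17, 5.1 and 14.6 FPKM in MIR394A OE, against 14.2, 9.58 and 18.9 FPKM in Brz-treated Col-0, and MIR394A OE replicate 3 lay among the Brz-treated libraries (-1.01 ± 0.38, adjusted p = 0.054; after removal -1.35, adjusted p = 0.037). WRKY40 had the same spread, at 0.96, 4.49 and 13.4 FPKM in MIR394A OE and 11.9, 10.7 and 27.7 FPKM in Brz-treated Col-0 (-1.60 ± 0.56, adjusted p = 0.039). When MIR394A OE replicate 3 was left out, 4 of the 8 were lower as deposited. Among 10 flavonoid genes 0 were higher and 2 lower in both settings, the regulator MYB12 (-0.61 ± 0.20, adjusted p = 0.029) and the flavonol synthase FLS1 (-0.80 ± 0.28, adjusted p = 0.040). Among the flavonoid genes, 0 were lower without MIR394A OE replicate 2 or Brz-treated Col-0 replicate 2 or 3. JAZ1 lost its call without MIR394A OE replicate 1, 2 or 3 or Brz-treated Col-0 replicate 2 or 3 (adjusted p = 0.055 to 0.15), WRKY40 without MIR394A OE replicate 1 or 2 or Brz-treated Col-0 replicate 1, 2 or 3 (adjusted p = 0.061 to 0.16), MYB12 without MIR394A OE replicate 2 or 3 or Brz-treated Col-0 replicate 2 or 3 (adjusted p = 0.059 to 0.12), and FLS1 without MIR394A OE replicate 2 or Brz-treated Col-0 replicate 1, 2 or 3 (adjusted p = 0.070 to 0.15). Median-ratio scaling gave 1 higher jasmonate gene, 4 lower immune genes and 4 lower flavonoid genes. Quantile normalization gave 0 higher jasmonate genes, 4 lower immune genes and 4 lower flavonoid genes. Removal gave 5 lower immune genes without MIR394A OE replicate 3. Without Brz-treated Col-0 replicate 1 it gave 2 higher jasmonate genes and 1 lower, LOX3 (-0.423, adjusted p = 0.045). As deposited, LOX3 was called higher (0.44 ± 0.16, adjusted p = 0.042). After removal, FLS1, JAZ1 and WRKY33 were not called without Brz-treated Col-0 replicate 1 (adjusted p = 0.053 to 0.056), and JAZ1 was not called without MIR394A OE replicate 3 (adjusted p = 0.096).

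Genes of cold, drought and abscisic acid responses included 2 of 14 higher and 4 lower (median -0.29), and 1 higher and 3 lower after removal (median -0.60). DI21, a drought-induced gene, measured 56.2, 36.9 and 65.7 FPKM in MIR394A OE, against 176, 257 and 299 FPKM in Brz-treated Col-0 (-2.19 ± 0.22, adjusted p = 0.00027; after removal -1.87, adjusted p = 0.00082). KIN2, a cold-induced gene, measured 88.8, 46.6 and 132 FPKM in MIR394A OE, against 238, 391 and 398 FPKM in Brz-treated Col-0 (-2.01 ± 0.48, adjusted p = 0.0077). RD22, of the same list, was higher (0.87 ± 0.13, adjusted p = 0.0010; after removal 0.67, adjusted p = 0.024), and the transcription factor gene RD26 was lower (-1.08 ± 0.30, adjusted p = 0.016). For DI21, KIN2 and RD26, MIR394A OE replicate 3 was the library of its group nearest to Brz-treated Col-0. Of 15 genes of oil breakdown, 4 were higher and 2 lower, near the 26.3% and 12.3% of all genes. After removal 1 was higher and 4 were lower, beside 9.35% and 11.3% of all genes. The largest change in this list was that of ICL, named above. Of 10 seed storage genes only 2 passed the filter, CRA1 and OLEO2, and both were lower. CRA1 measured 0.86, 0.26 and 0.8 FPKM in MIR394A OE, against 1.6, 5.44 and 1.83 FPKM in Brz-treated Col-0. It thus passed the filter through the Brz-treated group alone, which fixed its direction, and it adds no support. OLEO2, a protein of oil bodies, measured 3.09, 1.29 and 1.35 FPKM in MIR394A OE, against 5.62, 6.85 and 4.42 FPKM in Brz-treated Col-0 (-1.23 ± 0.24, adjusted p = 0.0027). The summed FPKM of the 10 was 1.98 to 6.12 in MIR394A OE, 8.14 to 19.1 in Brz-treated Col-0 and 1.96 to 2.76 in Col-0, with up to 3 of the genes listed at 0 in a library. Whether residual seed RNA has a part in the lower ICL was not tested. Among the cold and drought genes, 2 were lower without MIR394A OE replicate 2. Among the oil breakdown genes, 2 were higher without MIR394A OE replicate 1 or Brz-treated Col-0 replicate 2 and 7 were higher without Brz-treated Col-0 replicate 1. RD26 lost its call without MIR394A OE replicate 2 or Brz-treated Col-0 replicate 1 or 2 (adjusted p = 0.051 to 0.060). Removal gave 6 lower cold and drought genes without MIR394A OE replicate 3. After removal, KIN2, OLEO2 and RD22 were not called without Brz-treated Col-0 replicate 1 (adjusted p = 0.051 to 0.065), and OLEO2 was not called without MIR394A OE replicate 3 (adjusted p = 0.072).

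Further lists covered the cell cycle and other hormones. Their counts stand beside 26.3% of all genes higher and 12.3% lower as deposited, and 9.35% and 11.3% after removal. Of 8 SIAMESE-related genes 0 were higher and 4 lower, and 3 lower after removal. Besides SMR5 they included SMR6, at 2.13, 1.94 and 3.15 FPKM in MIR394A OE and 3.88, 5.11 and 6.8 FPKM in Brz-treated Col-0 (-0.87 ± 0.21, adjusted p = 0.0074), and SMR2 (-0.63 ± 0.17, adjusted p = 0.011). As given above, the filter fixed the direction of SMR5. Of 11 cell cycle genes CYCD3;3, a D-type cyclin gene, was the 1 called, and it was lower in both settings (-0.50 ± 0.18, adjusted p = 0.048; after removal -0.53, adjusted p = 0.013). Of 8 type-A response regulators of cytokinin, 0 were higher and 3 lower in both settings. ARR3 measured 2.38, 1.52 and 2.59 FPKM in MIR394A OE, against 4.72, 5.86 and 8.63 FPKM in Brz-treated Col-0 (-1.21 ± 0.26, adjusted p = 0.0047), and ARR4 (-0.52 ± 0.15, adjusted p = 0.016) and ARR16 (-0.72 ± 0.20, adjusted p = 0.015) were lower by less. Of 5 GASA peptide genes, induced or repressed by gibberellin, 1 was higher and 3 lower, and 0 higher and 2 lower after removal. GASA4 measured 198, 178 and 224 FPKM in MIR394A OE, against 517, 575 and 562 FPKM in Brz-treated Col-0 (-1.46 ± 0.13, adjusted p = 0.00016; after removal -1.07, adjusted p = 0.00080), and GASA14 was higher as deposited (1.32 ± 0.27, adjusted p = 0.0039) and not called after removal (1.02, adjusted p = 0.061). Of 10 gibberellin genes 4 were higher and 1 lower, and 0 higher and 2 lower after removal, with the receptor gene GID1C lower in both settings (-0.53 ± 0.15, adjusted p = 0.017; after removal -0.79, adjusted p = 0.0028). Of 10 ethylene genes 3 were higher and 1 lower, near the shares of all genes, and 0 higher and 2 lower after removal. ACO1, an enzyme of ethylene synthesis, was lower in both settings (-0.77 ± 0.24, adjusted p = 0.024). Among the SIAMESE-related genes, 2 were lower without MIR394A OE replicate 1 or Brz-treated Col-0 replicate 3. Among the response regulators, 1 was lower without Brz-treated Col-0 replicate 3. Among the gibberellin genes, 1 was higher without MIR394A OE replicate 2 or Brz-treated Col-0 replicate 3 and 2 were higher without Brz-treated Col-0 replicate 2. Among the ethylene genes, 1 was higher without MIR394A OE replicate 1, 2 or 3 or Brz-treated Col-0 replicate 2 or 3. Median-ratio scaling gave 7 lower SIAMESE-related genes, 3 lower cell cycle genes, 2 higher gibberellin genes, 1 higher ethylene gene and 3 lower ethylene genes. Quantile normalization gave 3 lower cell cycle genes and 1 higher gibberellin gene. SMR2 lost its call without MIR394A OE replicate 1 or Brz-treated Col-0 replicate 3 (adjusted p = 0.054 to 0.059), CYCD3;3 without MIR394A OE replicate 1, 2 or 3, Brz-treated Col-0 replicate 1, 2 or 3 or Col-0 replicate 1 or 2 (adjusted p = 0.051 to 0.16), ARR4 without MIR394A OE replicate 2 or Brz-treated Col-0 replicate 2 or 3 (adjusted p = 0.050 to 0.083), ARR16 without MIR394A OE replicate 1 or Brz-treated Col-0 replicate 3 (adjusted p = 0.067 to 0.076), GID1C without MIR394A OE replicate 1 or 2 or Brz-treated Col-0 replicate 2 (adjusted p = 0.055 to 0.064), and ACO1 without MIR394A OE replicate 1 or 3 or Brz-treated Col-0 replicate 1, 2 or 3 (adjusted p = 0.058 to 0.065).

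Nutrient and sugar genes called as deposited were mostly higher, as were the called genes of the whole set (26.3% higher and 12.3% lower). Of 8 nitrate genes 4 were higher and 0 lower, and 3 higher and 1 lower after removal. NRT1.5, which loads nitrate into the xylem, measured 42.1, 39.7 and 38.8 FPKM in MIR394A OE, against 14.9, 9.58 and 11.6 FPKM in Brz-treated Col-0 (1.68 ± 0.17, adjusted p = 0.00028; after removal 1.26, adjusted p = 0.00080). GLU1, the ferredoxin-dependent glutamate synthase, rose by 1.57 ± 0.21 (adjusted p = 0.00066) and 0.60 (adjusted p = 0.010). Of 11 iron deficiency genes 5 were higher and 0 lower, and 3 higher after removal, led by BTS, a regulator of iron uptake, at 8.84, 9.83 and 11.02 FPKM in MIR394A OE and 4.7, 2.19 and 2.27 FPKM in Brz-treated Col-0 (1.48 ± 0.22, adjusted p = 0.00096; after removal 0.59, adjusted p = 0.013). BHLH39, in both counts, measured 0.78, 0.51 and 0.98 FPKM in Brz-treated Col-0. It passed the filter through MIR394A OE alone, which fixed its direction. Of 3 tested sucrose-phosphate synthase genes 2 were higher in both settings, SPS4F described above and SPS1F (1.34 ± 0.18, adjusted p = 0.00074; after removal 0.57, adjusted p = 0.0091). Of 16 aquaporin genes 3 were higher and 2 lower, not far from the shares of all genes. After removal 0 were higher and 1 lower, PIP2;8 (-0.64, adjusted p = 0.033). Of 10 clock genes 3 were higher and 1 lower, near the shares of all genes. After removal LUX, an evening gene, was the 1 called, and it was lower (-1.04, adjusted p = 0.0022). LCR and 7 genes of the microRNA machinery, such as AGO1 and DCL1, gave 6 higher and 0 lower (median 0.70), and 0 higher and 0 lower after removal (median -0.01), with AGO1 at 0.82 ± 0.18 (adjusted p = 0.0047) and 0.06 (adjusted p = 0.77). Among the iron genes, 2 were higher without Brz-treated Col-0 replicate 2 and 3 were higher without MIR394A OE replicate 3 or Brz-treated Col-0 replicate 3. Among the aquaporins, 1 was higher without MIR394A OE replicate 1 or 2 or Brz-treated Col-0 replicate 1 or 2, and 0 were lower without Brz-treated Col-0 replicate 2 and 4 were lower without Brz-treated Col-0 replicate 1. Among the clock genes, 1 was higher without MIR394A OE replicate 1 or 3 or Brz-treated Col-0 replicate 2 or 3 and 7 were higher without Brz-treated Col-0 replicate 1. Median-ratio scaling gave 2 higher nitrate genes and 0 higher aquaporin genes. Quantile normalization gave 6 higher aquaporin genes. Removal gave 3 lower aquaporin genes without Brz-treated Col-0 replicate 1, and 2 higher aquaporin genes without MIR394A OE replicate 3. After removal, PIP2;8 was not called without MIR394A OE replicate 3 (adjusted p = 0.073).

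Markers of roots and of green tissue were detected in all libraries. Of 9 tested root hair genes 0 were called in either setting, and their summed FPKM was 114 to 311 in MIR394A OE 108 to 179 in Brz-treated Col-0 and 76.7 to 185 in Col-0. Among the root hair genes, 2 were higher without MIR394A OE replicate 3. Of 16 genes of the endodermis and of suberin, 3 were higher and 0 lower (median 0.52), beside 26.3% and 12.3% of all genes. The list was thus not called higher more often than all genes as deposited. After removal 5 were higher and 0 lower (median 0.32), beside 9.35% and 11.3% of all genes. CASP1 to CASP5, which build the Casparian strip, included CASP2, at 18.1, 13.3 and 15.9 FPKM in MIR394A OE and 10.3, 8.9 and 11.4 FPKM in Brz-treated Col-0 (0.58 ± 0.21, adjusted p = 0.043; after removal 0.84, adjusted p = 0.017). The peroxidase gene PER72 was higher in both settings (0.75 ± 0.15, adjusted p = 0.0033; after removal 0.72, adjusted p = 0.0072). The summed FPKM of this list was 255 to 343 in MIR394A OE, 191 to 248 in Brz-treated Col-0 and 175 to 305 in Col-0. The summed FPKM of the 15 antenna genes, the markers of green tissue, was 60635 to 64166 in MIR394A OE, 79710 to 101990 in Brz-treated Col-0 and 56874 to 65804 in Col-0. The part of organ proportions in the other results was not tested. Among the endodermis genes, 1 was higher without MIR394A OE replicate 1 or Brz-treated Col-0 replicate 2 and 6 were higher without Col-0 replicate 1. CASP2 lost its call without MIR394A OE replicate 1 or 3 or Brz-treated Col-0 replicate 1, 2 or 3 (adjusted p = 0.064 to 0.15). Median-ratio scaling gave 1 higher endodermis gene. Quantile normalization gave 1 higher endodermis gene. Removal gave 3 higher endodermis genes without Brz-treated Col-0 replicate 1.

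MIR394A OE stood apart from both other groups in some genes. These were counted only among the genes called alike as deposited and after removal, 1262 higher and 1155 lower. The 3 MIR394A OE libraries lay above all 6 other libraries in 84 such genes (0.488% of all tested) and below them in 49 (0.285%). Genes apart from all other libraries but not called in both settings were not counted, so these shares are limited by that requirement. Apart from QQS, MRD1 and AT1G75945, the decreases were led by AT1G56150 and AT5G03090. AT5G03090, whose product name is like that of MRD1, measured 0.53, 2.32 and 1.07 FPKM in MIR394A OE, 7.65, 9.31 and 8.61 FPKM in Brz-treated Col-0 and 9.96, 5.16 and 7.82 FPKM in Col-0 (-2.12 ± 0.28, adjusted p = 0.00061; after removal -1.49, adjusted p = 0.013). Shared reads between MRD1 and AT5G03090 were not tested. The increases were led by AT1G29660 and TGG2, given above, and by AT1G52750, AT1G78230 and AT3G56060. AT1G52750, of the alpha/beta-hydrolase family, measured 9.03, 8.0 and 10.5 FPKM in MIR394A OE, 2.97, 1.75 and 1.97 FPKM in Brz-treated Col-0 and 5.45, 7.89 and 6.43 FPKM in Col-0 (1.67 ± 0.20, adjusted p = 0.00050). AT1G78230, annotated as an outer arm dynein light chain protein, measured 20.4, 19.0 and 18.1 FPKM in MIR394A OE, 7.2, 5.16 and 5.7 FPKM in Brz-treated Col-0 and 15.1, 17.1 and 17.9 FPKM in Col-0 (1.53 ± 0.16, adjusted p = 0.00027). AT3G56060, of an oxidoreductase family, measured 12.6, 11.2 and 13.5 FPKM in MIR394A OE, 4.35, 3.21 and 3.69 FPKM in Brz-treated Col-0 and 9.35, 10.98 and 10.2 FPKM in Col-0 (1.503 ± 0.16, adjusted p = 0.00034). For these 3 increases the Col-0 libraries were nearer to MIR394A OE than to Brz-treated Col-0, and for AT5G03090 they were nearer to Brz-treated Col-0.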

How the data were processed

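RNA-seq of whole Arabidopsis seedlings was deposited as a single table of FPKM values per gene, which the authors computed from their reads. The submitters' processing notes name Bowtie2 and HISAT, but neither what each did nor its version. Build, annotation, counting program and use of strand: not given in the sources used here. For this reason values of near-identical and overlapping genes are uncertain. Of 27647 listed loci, 3316 had no values. All 9 value columns were assigned to a library by their names, and 0 were left unused. Symbols, transcript lengths and sequences came from the RefSeq annotation of TAIR10.1, in which 27438 loci were found by locus name.

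From the deposited values, log2(FPKM + 1) was fitted with limma 3.58.1 (R 4.3.3) with an intensity trend, group means over all 9 libraries and 6 residual degrees of freedom, for the 17201 genes with at least 1 FPKM in at least 3 of the 6 compared libraries. P-values were adjusted over all these genes by the Benjamini-Hochberg method and called under 0.05. Every adjusted p in the text is from this fit or from the named alternative of it. Because of the added 1, the change of weakly expressed genes is understated. A gene under 1 FPKM throughout 1 compared group passed the filter through the other group alone, which fixed its direction. Such genes are among the list counts. The length trend was removed per library by a loess fit (span 0.5) on log transcript length, and 122 tested genes without a length, all plastid or mitochondrial, were only shifted, so that no value after removal is given for them. The code was tested on simulated data.

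Depth was estimated from the steps between low FPKM values, at 21.6 to 22.0 M reads per library, and counts were not recovered. Genes named in the text are, first, the 12 with the largest increases and the 12 with the largest decreases among genes called alike with and without the length trend, without overlap and with a higher group mean of at least 5 FPKM. Next come the 5 largest of each direction with MIR394A OE apart from all 6 other libraries, the up to 4 members of each of 44 lists with the smallest p, and all brassinosteroid genes and LCR. SAUR genes and others beyond these were named after their values were seen. The members and lists were chosen with earlier results of these data known. Alternatives covered the filter, pseudocount, scaling, library weights, length removal, a replicate block and leaving out each library.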

Additional observations from a re-analysis of the deposited data

How the results depend on the processing

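The counts of called genes, 4525 higher and 2124 lower in MIR394A OE, depended on scaling and on single libraries. Leaving out 1 library at a time gave 2329 to 6771 higher and 1272 to 2613 lower. Median-ratio scaling gave 3599 higher and 3882 lower, and quantile normalization gave 3559 and 3447. Library weights gave 8742 and 3862. A limit of 1 on the absolute log2 fold change left 887 and 377, and an adjusted p under 0.01 left 2260 and 1087. With the length trend removed the counts were 1608 and 1944, with 1447 and 1742 from the 6 compared libraries alone. The same removal without Brz-treated Col-0 replicate 1 gave 1975 and 2152. Added after seeing the data, removal without MIR394A OE replicate 3 gave 2153 and 2042, and removal without MIR394A OE replicate 3 and Col-0 replicate 2 gave 2361 and 2259. The cause of these differences was not tested. The other settings kept both counts within 1.5 times.

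The replicate numbers are shared by the groups, and the labels do not say whether they pair the libraries. Deviations of same-numbered MIR394A OE and Brz-treated Col-0 libraries correlated at 0.01, 0.15 and 0.04 for numbers 1 to 3. Each MIR394A OE library correlated best with its own number, whereas Brz-treated replicate 1 did so with MIR394A OE replicate 3 (0.03). Between MIR394A OE and Col-0 the same-numbered values were -0.24, -0.65 and -0.54. Deviations from means of 3 libraries depend on each other, so these values do not decide whether the libraries were paired. With the replicate block 3627 genes were higher and 1685 lower, and with the block after length removal 838 and 1048. That last fit left 0 genes higher among the brassinosteroid receptors, kinases and phosphatases and 0 among the BZR1 family.

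Of 214 genes followed through these settings, 22 had the other sign under at least 1 of them, 21 with the length trend removed and 6 in other settings, of which CYP90D1, DWF5, UGT73C5, BIA1, BSK3 and LCR turned under median-ratio scaling without a call. In 14 of the 22 the gene was called in the deposited values or under the setting that turned it, in each case with the length trend removed, and the cause was not tested. HERK2 was at -0.1784 after removal, also with the replicate block and with the 6 libraries, at -0.1798 without Brz-treated Col-0 replicate 1 and at -0.1112 without MIR394A OE replicate 3, with or without Col-0 replicate 2. In the same order, LOX3 was at -0.2206, -0.423 and -0.1432, NIA2 at -0.1201, -0.1828 and -0.007, DCL1 at -0.3163, -0.3543 and -0.3434, and BSK3 at -0.4968, -0.4912 and -0.554. Among these values LOX3 was called lower at -0.423 (adjusted p = 0.045), and BSK3 at each of its values. HST was at -0.0524 and -0.119 and BAK1 at -0.0843 and -0.187, and both kept their sign without MIR394A OE replicate 3. A called value turned after removal without Brz-treated Col-0 replicate 1 alone in TUB6 (-0.0674), GI (-0.0562), EBF1 (-0.1691), AOS (-0.171), ACX3 (-0.0078) and BSL3 (-0.0415). CYP90D1, negative after removal with all libraries too (-0.37, not called), was called at -0.4814 without MIR394A OE replicate 3. Of the 29 genes with the largest changes or apart from all other libraries, 23 were called under all 26 alternatives, and AT1G68723, AT1G66100 and SMR5 under the 25 run for them, since they failed the filter at 5 FPKM. Depth limits the low genes, since the fit on log2(FPKM + 1) carries no counting error.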
